A study of Mus musculus with 24 samples.

Results

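The proteasome subunit genes were read in messenger RNA of 2 testis germ cell fractions and 3 genotypes. The members are all protein-coding genes of the count table whose symbol begins with Psma, Psmb, Psmc, Psmd, Psme, Psmf or Psmg in GENCODE M21, leaving out Psmc3ip, which encodes a recombination factor. The rule gave 49 members among 55536 genes. Of these, 45 reached 10 counts in 3 or more libraries of every fit and were tested. The 4 others were Psmb8, Psmb9, Psmb11 and Psme2b.

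The cells were enriched pachytene/diplotene spermatocytes (SP) and round spermatids (RS) of C57BL/6J males aged 10 to 15 weeks. The mice were Ago413+/+, Ago413+/- or Ago413-/-, where the deleted allele on chromosome 4 removes all of Ago1 and parts of Ago3 and Ago4, 3 neighbouring Argonaute genes. The allele came from a single existing strain made with the MICER targeting system and was kept on the C57BL/6J background. Per the paper, it was made in embryonic stem cells of another mouse strain. The mice were crossed with a deleter line of mixed C57BL/6 and Swiss Webster background, and the line was backcrossed. Whether DNA of the strain of origin remains around the deletion was not tested. Testes of 2 to 5 mice went into each cell preparation, and fractions above 70% purity were pooled. The purity given in the paper is higher for RS than for SP. The groups held 4, 3 and 3 libraries of SP (+/+, +/-, -/-) and 3, 4 and 4 libraries of RS, after the 3 libraries labelled as outliers by the submitters were left out of 24. A library is a pool of animals, so a p-value between genotypes measures the spread between pools. Per the study's methods, both fractions come from the same cell suspension, so RS and SP libraries may share pools. The main fits between fractions, and the interaction, treat the libraries as independent. Fits with consecutive library numbers as pairs are given as an alternative. In bulk RNA, fewer cells of a type and less RNA per cell cannot be told apart.

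The proteasome is the large protease that degrades proteins tagged with ubiquitin. Its 20S core stacks rings of alpha subunits (Psma) and beta subunits (Psmb), with the cutting sites on the beta subunits Psmb5, Psmb6 and Psmb7. The 19S cap opens the core and unfolds the substrate with its ATPases (Psmc), and its other subunits (Psmd) recognise and trim ubiquitin. Other activators (Psme) can take the place of the cap, and dedicated chaperones (Psmg for the core, Psmd5, Psmd9 and Psmd10 for the cap) assist assembly. The testis has its own variant, in which the alpha subunit Psma8 replaces Psma7 in germ cells from meiosis on, and the activator Psme4 (PA200) is known for its part in degrading acetylated histones in spermatids.

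Depth ranged from 12825105 to 29749058 counts per library, with a median of 20255360, and a count of 0 allowed up to 0.0941 to 0.223 CPM, the count of a gene scaled by the total of its library. Ago1 had no count in any of the 7 Ago413-/- libraries and 2.82 to 4.49 CPM in the Ago413+/+ libraries. Of the partly deleted genes, Ago3 was higher in Ago413-/- (38.2 to 86.4 CPM in SP and 16.6 to 46.8 CPM in RS) than in the wild type (4.92 to 11.3 and 3.86 to 5.92 CPM), and Ago4 was at 9.5 to 16.1 and 9.67 to 13.4 CPM against 16.8 to 46.8 and 14.2 to 20.6 CPM. Per the paper, the mutant allele still yields Ago3 and Ago4 RNA, which carries premature stop codons. Its western blots of testis showed loss of the AGO1, AGO3 and AGO4 proteins. The summed level of 6 round spermatid markers was 2659 to 9446 CPM in SP and 12295 to 33986 CPM in RS, so the labels and the markers went the same way. The summed level of 6 pachytene markers was 429 to 1516 CPM in SP and 326 to 634 CPM in RS. Markers of macrophages were higher in RS (14.4 to 53.1 CPM summed over 10 genes) than in SP (3.88 to 12.9 CPM), and 7 of the 10 were called higher in RS in each genotype. Endothelial markers did not overlap either (12.5 to 21.3 CPM in RS, at most 8.39 CPM in SP), and at least 1 endothelial, 1 erythrocyte and 1 myoid marker was called higher in RS in each genotype. Sertoli markers were at 23.6 to 126 CPM in SP and 32.4 to 134 CPM in RS over all genotypes, and within Ago413-/- the fractions did not overlap (26.3 to 49.5 CPM in SP, 68.6 to 134 CPM in RS). The part of these other cells in the results below was not tested.

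The promoters of 3 members are shown because these genes differed between the fractions in opposite directions: Psmd14 was lower, and Psmf1 and Psma6 were higher, in wild-type RS. Each sequence runs over the 250 bases before a start and the first 50 bases from it, as listed by RefSeq on GRCm38.p6, read 5′ to 3′ along the gene's strand. Capitals mark matches, on either strand, to 4 motifs that were searched: TGACNNNGC (antioxidant response element core), CCAAT, TGACGTCA (cyclic AMP response element) and TAACNG (MYB core). Psma6 has 2 listed starts and both are given.
Psmd14 (chr2:61711444-61711743, plus strand): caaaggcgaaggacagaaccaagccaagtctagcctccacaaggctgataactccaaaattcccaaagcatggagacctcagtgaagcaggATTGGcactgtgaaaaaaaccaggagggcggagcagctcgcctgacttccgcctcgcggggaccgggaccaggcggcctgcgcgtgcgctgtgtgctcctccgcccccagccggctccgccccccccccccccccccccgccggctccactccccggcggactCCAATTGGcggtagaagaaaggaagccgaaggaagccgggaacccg
Psmf1 (chr2:151741261-151741560, minus strand): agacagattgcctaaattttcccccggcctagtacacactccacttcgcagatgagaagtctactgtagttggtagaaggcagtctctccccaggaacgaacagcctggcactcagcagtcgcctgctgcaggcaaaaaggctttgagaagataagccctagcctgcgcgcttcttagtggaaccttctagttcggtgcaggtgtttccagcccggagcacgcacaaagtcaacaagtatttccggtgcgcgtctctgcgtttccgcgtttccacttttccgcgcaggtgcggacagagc
Psma6, first start (chr12:55383972-55384271, plus strand): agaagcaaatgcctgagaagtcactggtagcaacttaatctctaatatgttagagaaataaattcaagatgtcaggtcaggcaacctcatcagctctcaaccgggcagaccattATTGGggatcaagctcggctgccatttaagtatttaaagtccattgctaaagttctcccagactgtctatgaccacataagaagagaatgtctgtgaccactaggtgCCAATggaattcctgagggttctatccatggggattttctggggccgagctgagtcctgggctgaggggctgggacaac
Psma6, second start (chr12:55398575-55398874, plus strand): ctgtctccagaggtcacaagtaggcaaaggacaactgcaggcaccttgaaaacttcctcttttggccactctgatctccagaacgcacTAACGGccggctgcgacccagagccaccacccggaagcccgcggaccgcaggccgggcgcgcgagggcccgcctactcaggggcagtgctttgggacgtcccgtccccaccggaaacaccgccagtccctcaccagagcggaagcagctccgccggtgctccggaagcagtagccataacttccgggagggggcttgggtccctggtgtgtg

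The Psmd14 window held CCAAT on one or the other strand at 3 places, 2 of them overlapping, the first Psma6 window held it at 2 places, the second held 1 MYB core, and the Psmf1 window held none of the 4 motifs. Promoters were found for 41 members (44 windows). CCAAT was in 14 windows (31.8%, against 37.4% of 32851 promoters of the same length), the MYB core in 7 (15.9% against 23.3%), the antioxidant response element core in 6 (13.6% against 12.4%) and the cyclic AMP response element in 0 (against 1.79%). These are matches of letters and were not tested as binding sites.

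Members of one complex differed widely in level per kilobase of exon, taken over the joined exons of all annotated transcripts. These lengths differ between genes (1234 bases for Psma6 and 3071 for Psma7), so the fold ranges below depend in part on the annotation. The length of the transcripts made in these cells was not measured. In wild-type SP, the cap ATPase Psmc3 was highest at 407 ± 26.1 CPM per kb (SD, n = 4), followed by the alpha subunit Psma6 at 261 ± 50.9 and the cap scaffold Psmd2 at 157 ± 17.4. Psmc6, also an ATPase of the same ring, was at 8.18 ± 1.08 CPM per kb, so the highest and lowest of the 6 ATPases were 49.7-fold apart. The lowest of the 7 standard alpha subunits was Psma7, at 3.6 ± 0.754 CPM per kb, which put it 72.4-fold under Psma6. The testis subunit Psma8 stood at 54 ± 19.8 CPM per kb. The 3 catalytic beta subunits were closer together, from 43.3 ± 6.79 (Psmb5) to 98.8 ± 3.91 CPM per kb (Psmb6), a 2.28-fold range. Among activators and inhibitors, Psme4 was highest at 69.9 ± 9.27 CPM per kb and Psme1 lowest at 0.886 ± 0.0797.

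In wild-type RS the order at the top changed. Psma6 was highest at 481 ± 37.6 CPM per kb (SD, n = 3) and Psmc3 second at 400 ± 42, and the ranges of 1 SD around these means did not overlap. Psmf1, the inhibitor PI31, led the activators and inhibitors with 91.9 ± 8.88 CPM per kb. Psma8 was at 20.9 ± 4.91 and Psma7 at 4.5 ± 0.242 CPM per kb. The core chaperone Psmg3 had the lowest level of the tested members in both fractions, at 0.487 ± 0.175 CPM per kb in SP and 0.19 ± 0.127 in RS, and rested on 4 to 37 counts per library. Together the members took 0.66% ± 0.0142 of all counts in wild-type SP (SD, n = 4) and 0.597% ± 0.0352 in wild-type RS (n = 3). In Ago413+/- the shares were 0.665% ± 0.0786 in SP (n = 3) and 0.571% ± 0.0191 in RS (n = 4). In Ago413-/- they were 0.625% ± 0.0146 in SP (n = 3) and 0.586% ± 0.00651 in RS (n = 4).

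**Figure D1:**
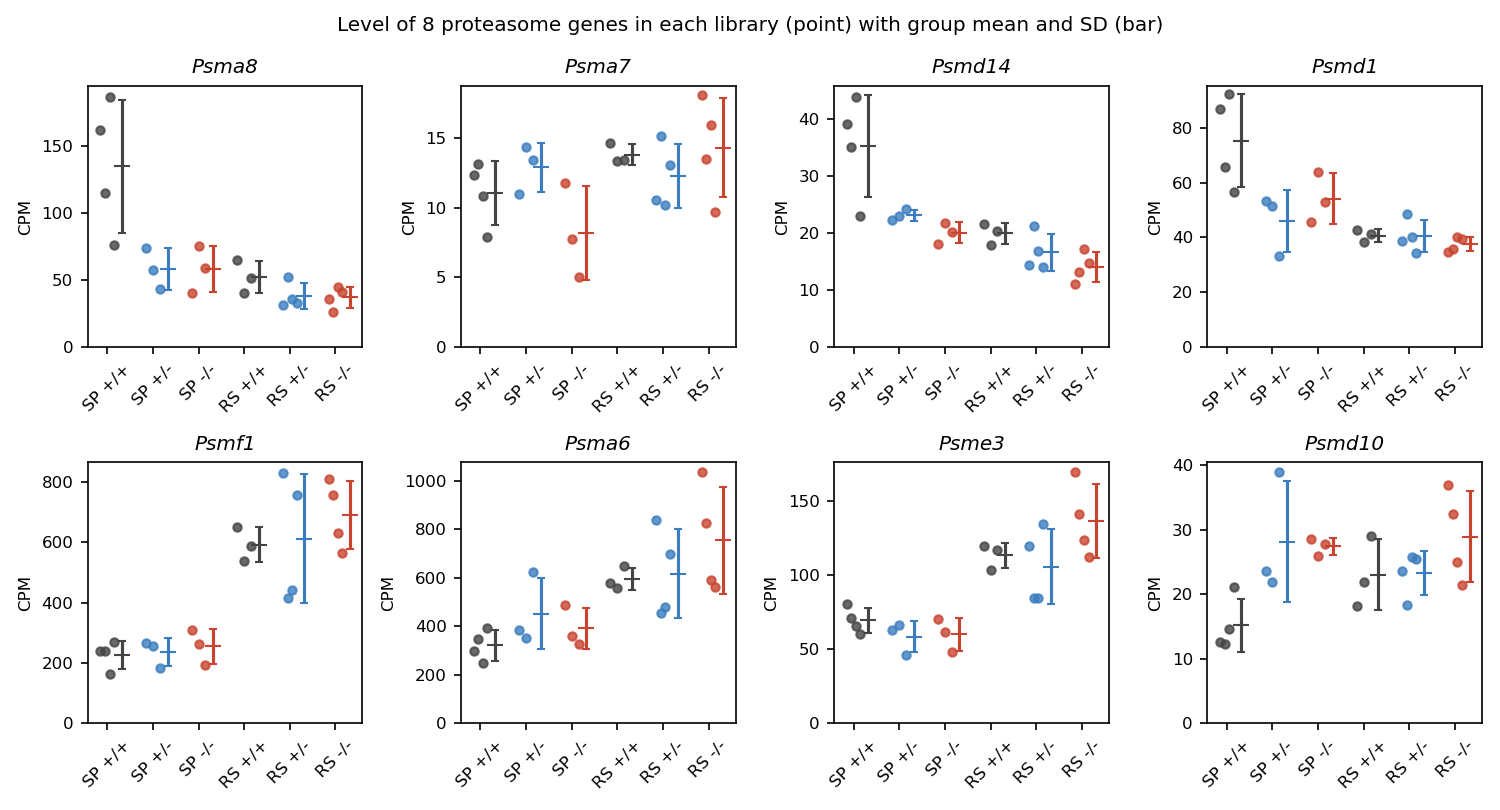
Level in CPM (vertical axis, linear from 0) of 8 members in each library (points) with group mean and SD (bars), for spermatocytes (SP) and round spermatids (RS) of the 3 genotypes. Psmf1 lay between 416 and 831 CPM in RS and between 162 and 311 CPM in SP, whereas Psma8 was highest in the 4 wild-type SP libraries.

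In wild-type cells the pachytene markers were lower in RS as well (4 of 6 called). The first comparison asked how the transcripts differ between meiotic and postmeiotic cells of wild-type males. In RS, 3 members were higher (Psmf1, Psma6, Psme3) and 9 were lower (Psma8, Psmg3, Psmd1, Psmd14, Psmb1, Psma2, Psmg1, Psma1 and Psmd6) by edgeR. A call throughout means an adjusted p under 0.05 with a log2 fold change above 0.5 or below -0.5. That is 6.67% of the 45 called higher against 12.7% of the 20404 genes tested, and 20% called lower against 11.4%. Leaving out 1 library gave 8 to 15 called members, with 5 lower (11.1% against 7.17%) without SP replicate 4 and 11 lower (24.4% against 14.7%) without SP replicate 5. Of the 45, 36 had a negative and 9 a positive log2 fold change, with a median of -0.25, where the median of all genes was 0.02.

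Psmf1, which binds the 20S core and was described as its inhibitor, showed the largest rise. Its level was 238, 241, 162 and 270 CPM in the 4 wild-type SP libraries and 651, 537 and 589 CPM in the 3 wild-type RS libraries. Every RS library lay above every SP library, and the log2 fold change was 1.38 (SE 0.23, adjusted p = 0.00051). Psma6, an alpha ring subunit, was at 298, 347, 248 and 394 CPM in SP and at 579, 557 and 646 CPM in RS, without overlap (log2 fold change 0.88, SE 0.24, adjusted p = 0.0098). Psme3 (PA28 gamma, a nuclear activator) was at 80.2, 71, 65.8 and 60.3 CPM in SP and at 119, 103 and 117 CPM in RS, again without overlap (log2 fold change 0.71, SE 0.19, adjusted p = 0.0075).

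Psma8, the testis alpha subunit, showed the largest fall. The wild-type SP libraries had 162, 115, 187 and 75.7 CPM and the RS libraries 64.7, 40.3 and 51.7 CPM. The lowest SP library stayed above the highest RS library, and the log2 fold change was -1.37 (SE 0.29, adjusted p = 0.0017). Psmd1, a scaffold of the 19S base, was at 86.7, 65.8, 92.3 and 56.4 CPM in SP and at 42.6, 38.1 and 41.2 CPM in RS (log2 fold change -0.89, SE 0.19, adjusted p = 0.0017). Psmd14, the enzyme of the lid that cuts ubiquitin chains off substrates, was at 39, 35, 43.7 and 22.9 CPM in SP and at 21.5, 17.9 and 20.3 CPM in RS (log2 fold change -0.82, SE 0.20, adjusted p = 0.0048). For both genes the groups did not overlap.

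The other members called lower belonged to the core, its chaperones and the lid. Psmb1, a beta subunit, was at 75.6, 73, 75.4 and 52.6 CPM in SP and at 46.6, 36.1 and 40.6 CPM in RS (log2 fold change -0.75, adjusted p = 0.0038). The alpha subunits Psma2 and Psma1 had log2 fold changes of -0.63 and -0.57 (adjusted p = 0.034 and 0.013), and the lid subunit Psmd6 of -0.56 (adjusted p = 0.0042). The chaperone Psmg1, which pairs with Psmg2, had a log2 fold change of -0.61 (adjusted p = 0.033). Psmg3 had -1.30 (SE 0.47, adjusted p = 0.046) at 1.78, 1.41, 1.75 and 0.69 CPM in SP and 0.967, 0.405 and 0.276 CPM in RS, where the groups overlapped. Psmd10, the X-linked cap chaperone, passed in neither direction at 0.59 (adjusted p = 0.064).

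By role, none of the 6 cap ATPases and none of the 3 catalytic beta subunits was called, with 2 ATPases and 0 catalytic subunits at an unadjusted p under 0.05 by edgeR (37.9% of all genes) and 0 of each called by DESeq2. Of the 11 non-ATPase cap subunits 3 were called lower, of the 7 standard alpha subunits 2 lower and 1 higher, of the 4 other beta subunits 1 lower, of the 4 core chaperones 2 lower and of the 5 tested activators and inhibitors 2 higher, where 11.4% of all genes were called lower and 12.7% higher. Alpha subunits of one ring therefore moved in opposite directions, Psma6 up and Psma1, Psma2 and Psma8 down.

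**Figure D2:**
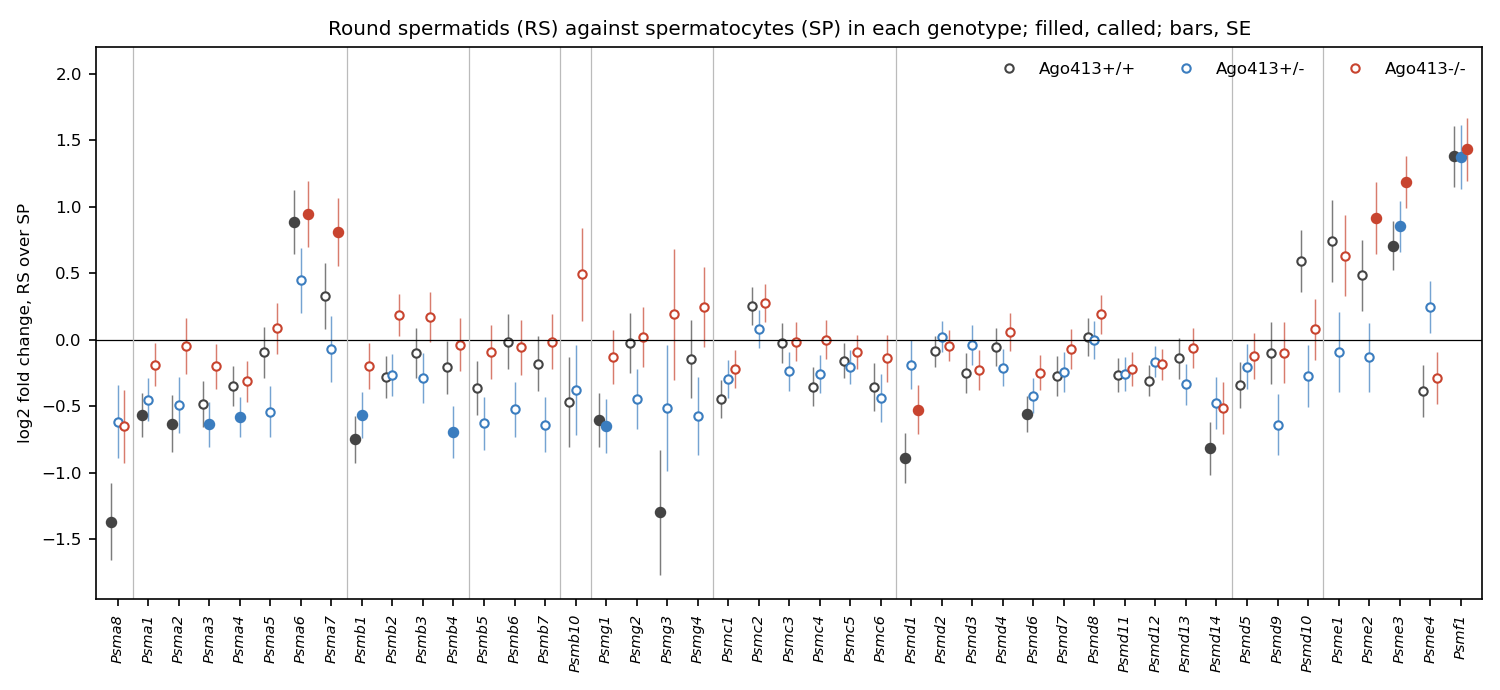
Log2 fold change of RS over SP (vertical axis, linear in log2) with its SE for the 45 tested members, grouped by role between grey lines, in Ago413+/+ (grey), +/- (blue) and -/- (red); filled points are called. Psmf1 and Psme3 are filled and above 0 in all 3 genotypes, and no member is filled and below 0 in all 3.

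Scaling and libraries set limits here. Upper-quartile scaling moved the median of all genes by 0.112 and left 4 members called higher (8.89%, against 15.2% of all genes) and 4 lower (8.89% against 8.08%), and relative to all genes the members' median was -0.269 with the main scaling and -0.265 with that one. With the libraries labelled as outliers added back, no gene passed, with 18 members (40%) at an unadjusted p under 0.05 against 29% of all genes. By the library numbers in the labels, the members' median was -0.28 within numbers up to 60 (2 RS against 3 SP libraries) and 0.03 above 60 (1 against 1), with -1.56 and -0.55 for Psma8 and 1.49 and 1.12 for Psmf1.

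The same comparison within the other genotypes was made with their own libraries. In Ago413+/-, Psmf1 (1.38, adjusted p = 0.0019) and Psme3 (0.85, adjusted p = 0.0063) were called higher, 4.44% of members against 7.07% of all genes. Psmb4, Psmg1, Psma3, Psma4 and Psmb1 were called lower, with log2 fold changes from -0.69 to -0.57, 11.1% of members against 1.82% of all genes. The median of the members was -0.29 and that of all genes -0.06. In the same comparison 5 of 5 Leydig markers were negative (median -1.51, 4 at an unadjusted p under 0.05, 1 called lower), as were 5 of 6 pachytene markers (4 at that p), and their part in the members' calls was not tested. SP replicate 3 of this genotype was the highest of the 10 SP libraries for 21 of the 45 members, with a median deviation of 0.40 on the log2 scale from the median of the fraction, where the other SP libraries lay between -0.23 and 0.25. Without it only Psmf1 was called (2.22%, against 5.1% of all genes). Without SP replicate 2 of the genotype 16 members were called (35.6% against 11.5%), without RS replicate 1 or RS replicate 4 there were 2 (4.44% against 4.72%), and without RS replicate 3 there were 4 (8.89% against 7.99%). With consecutive library numbers as pairs of RS and SP, Psmf1 and Psme3 were called and none of the 5 lower members.

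In Ago413-/-, 5 members were called higher in RS, 11.1% against 11.7% of all genes, and 1 was called lower, 2.22% against 5.42%. The higher ones were Psmf1 (1.43, adjusted p = 0.00096), Psme3 (1.19, adjusted p = 0.00096), Psma6 (0.94, adjusted p = 0.012), Psme2 (0.92, adjusted p = 0.021) and Psma7 (0.81, adjusted p = 0.031), all as log2 fold changes. The lower one was Psmd1 (-0.53, adjusted p = 0.048). The members' median was -0.05 and that of all genes 0.00. Leaving out RS replicate 1, SP replicate 2 or SP replicate 3 of this genotype left only Psmf1 and Psme3 called, and these were called in each of the 7 fits that left out 1 library. In the fits with 2 calls (4.44% of members), 6.15 to 10.7% of all genes were called. With consecutive library numbers as pairs, the 5 higher members were called and Psmd1 was not. In this genotype 3 of 6 Sertoli markers were also called higher in RS (median log2 fold change 1.51). Pachytene markers were negative for 5 of 6 (median -0.82, 2 called lower). The part of these lists in the members' calls was not tested.

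Psmf1 in Ago413+/- was at 266, 258 and 183 CPM in SP and at 831, 416, 442 and 757 CPM in RS, and in Ago413-/- at 311, 262 and 195 CPM in SP and at 810, 755, 629 and 563 CPM in RS. The fractions did not overlap in either genotype. Psme3 in Ago413+/- was at 63, 66.1 and 46.3 CPM in SP and at 119, 84.4, 84.3 and 134 CPM in RS, and in Ago413-/- at 70.4, 61.3 and 48.1 CPM in SP and at 169, 141, 123 and 112 CPM in RS. Here too every RS library was above every SP library of its genotype. Psma6 reached 1035 CPM in RS replicate 1 of Ago413-/-, with 825, 593 and 562 CPM in the others and 487, 361 and 328 CPM in SP, while in Ago413+/- the fractions overlapped (384, 352 and 622 CPM in SP, 836, 455, 479 and 696 CPM in RS) and the call was not made (0.45, adjusted p = 0.29). Across the 3 genotypes, 17 members were called in at least 1 (37.8%, against 30.8% of all genes), 2 were higher in all 3 (4.44% against 5.74%) and 0 were lower in all 3 (against 0.559%). Psma8, called lower in the wild type, had log2 fold changes of -0.62 in Ago413+/- (adjusted p = 0.17) and -0.65 in Ago413-/- (adjusted p = 0.10).

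Whether the fraction difference itself depended on genotype was tested with the interaction term, the null effect in RS minus the null effect in SP. No member and no gene was called by edgeR or by DESeq2 (0% of 20404), and 3 members (6.67%) had an unadjusted p under 0.05 by edgeR against 5.95% of all genes. Leaving out 1 library moved that count between 0 (without any 1 of 6 libraries, among them wild-type SP replicates 1, 2 and 4) and 9 (20% against 15.4%, without wild-type SP replicate 5). Of the 45 interaction terms 42 were positive, with a median of 0.20 where that of all genes was 0.05 and 54.8% of all genes were positive. With upper-quartile scaling 30 were positive, against 45.7% of all genes, with a median of 0.11 and 1 member at an unadjusted p under 0.05. The largest were those of Psmg3 (1.49), Psmb10 (0.96) and Psma8 (0.71), and the lowest those of Psmd10 (-0.52), Psme1 (-0.11) and Psmb6 (-0.04), with adjusted p of 0.81 or more. A difference between Ago413-/- and the wild type in this pattern was therefore not shown for any member, and Ago413+/- was not tested in this way.

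The genotype comparison in SP asked what loss of the Argonaute genes does to these transcripts in meiotic cells. With edgeR, 0 of the 45 members and 8 of 19450 genes (0.0411%) were called between Ago413-/- and Ago413+/+. At an unadjusted p under 0.05, 16 members were lower (35.6%, against 14.5% of all genes) and 2 were higher (4.44%, against 15.9%). The count of 16 lower was 9 with upper-quartile scaling, 7 with the library number as a term, 5 with the outlier libraries added back, 9 without wild-type replicate 1, and 8 without wild-type replicate 4 or null replicate 3. In both directions together, the share of members at that p was 40% against 30.4% of all genes in the first fit, 24.4% against 29.8% with upper-quartile scaling, 17.8% against 20.7% with the number term, 13.3% against 19.1% with the outlier libraries, and 20 to 22.2% against 20 to 21.4% without any 1 of those 3 libraries. DESeq2 called 9 members, Psmd10 higher (2.22% against 9.08% of all genes) and Psma2, Psma8, Psmb1, Psmb2, Psmc1, Psmd14, Psmg1 and Psmg3 lower (17.8% against 6.48%). Of the 45 log2 fold changes 37 were negative, with a median of -0.31, where that of all genes was -0.03. For 20 members (44.4%) each null library lay below each wild-type library, against 14.8% of all genes, and for 2 members (4.44%), Psmd10 and Psme4, each lay above, against 13.2%.

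Psma8 in SP was at 162, 115, 187 and 75.7 CPM in Ago413+/+, at 74, 57.4 and 43 CPM in Ago413+/- and at 40.6, 75 and 58.5 CPM in Ago413-/-. The mutant libraries of both genotypes lay below the wild-type ones, though the highest null library (75 CPM) nearly reached the lowest wild-type one (75.7 CPM). The log2 fold change was -1.19 in Ago413-/- (SE 0.30, edgeR adjusted p = 0.060, DESeq2 adjusted p = 0.0079) and -1.16 in Ago413+/- (SE 0.30, edgeR adjusted p = 0.12, DESeq2 adjusted p = 0.022). Both comparisons share the wild-type libraries.

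Psmd10 (gankyrin, chrX:140948429-140956728) went the other way. It was at 12.7, 12.3, 14.5 and 21.2 CPM in Ago413+/+, at 23.6, 21.8 and 39 CPM in Ago413+/- and at 28.5, 25.9 and 27.8 CPM in Ago413-/-, so that each mutant library was above the wild-type range. The log2 fold change was 0.87 in Ago413-/- (SE 0.25, edgeR adjusted p = 0.064, DESeq2 adjusted p = 0.015) and 0.93 in Ago413+/- (SE 0.25, edgeR adjusted p = 0.12, DESeq2 adjusted p = 0.027). In RS it was at 18.2, 21.9 and 29 CPM in wild-type libraries, at 23.6, 18.3, 25.8 and 25.4 CPM in Ago413+/- and at 36.8, 32.4, 25 and 21.4 CPM in Ago413-/-, where the groups overlapped (0.03 and 0.29, adjusted p = 0.98 and 0.41).

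The other members with the largest differences in null SP were Psmg3 (log2 fold change -1.42, SE 0.48, adjusted p = 0.082) and the inducible beta subunit Psmb10 (-0.94, SE 0.36, adjusted p = 0.11) on the lower side, and Psme4 (0.37, SE 0.15, adjusted p = 0.12) and Psma6 (0.30, SE 0.23, adjusted p = 0.37) on the higher side. Psmg3 was at 0.233, 0.801 and 0.5 CPM in Ago413-/- SP. Psme4 was at 470, 616, 625 and 633 CPM in wild-type SP, at 625, 636 and 525 CPM in Ago413+/- and at 671, 738 and 833 CPM in Ago413-/-. Its null libraries were all above the wild-type ones, and 1 wild-type library stood low. Psmd14 was at 18.1, 21.7 and 20.1 CPM in null SP, just under the 22.9 CPM of the lowest wild-type library (log2 fold change -0.79, SE 0.21, adjusted p = 0.061). Psmb2, a beta subunit whose gene lies 144 kb from the deleted Argonaute genes on chromosome 4, was at 25.5, 24, 25.5 and 20.7 CPM in wild-type SP and at 16.6, 16.5 and 15.4 CPM in null SP (log2 fold change -0.54, SE 0.17, adjusted p = 0.074). The part of DNA from the strain of origin in this difference was not tested.

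By role, the 11 non-ATPase cap subunits were all negative in null SP, with a median of -0.40 and 5 at an unadjusted p under 0.05, and all 4 core chaperones were negative with a median of -0.82 and 2 at that level. The 4 structural beta subunits had a median of -0.54 with 3 at that level, and the 3 catalytic ones of -0.28 with none. The 6 ATPases had a median of -0.13 with 2 at that level. Of all genes, 14.5% were lower at that p, and the 16 members behind these counts became 5 to 9 under the settings and left-out libraries given above. The 5 tested activators and inhibitors were the exception, with 4 positive values and a median of 0.18.

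**Figure D3:**
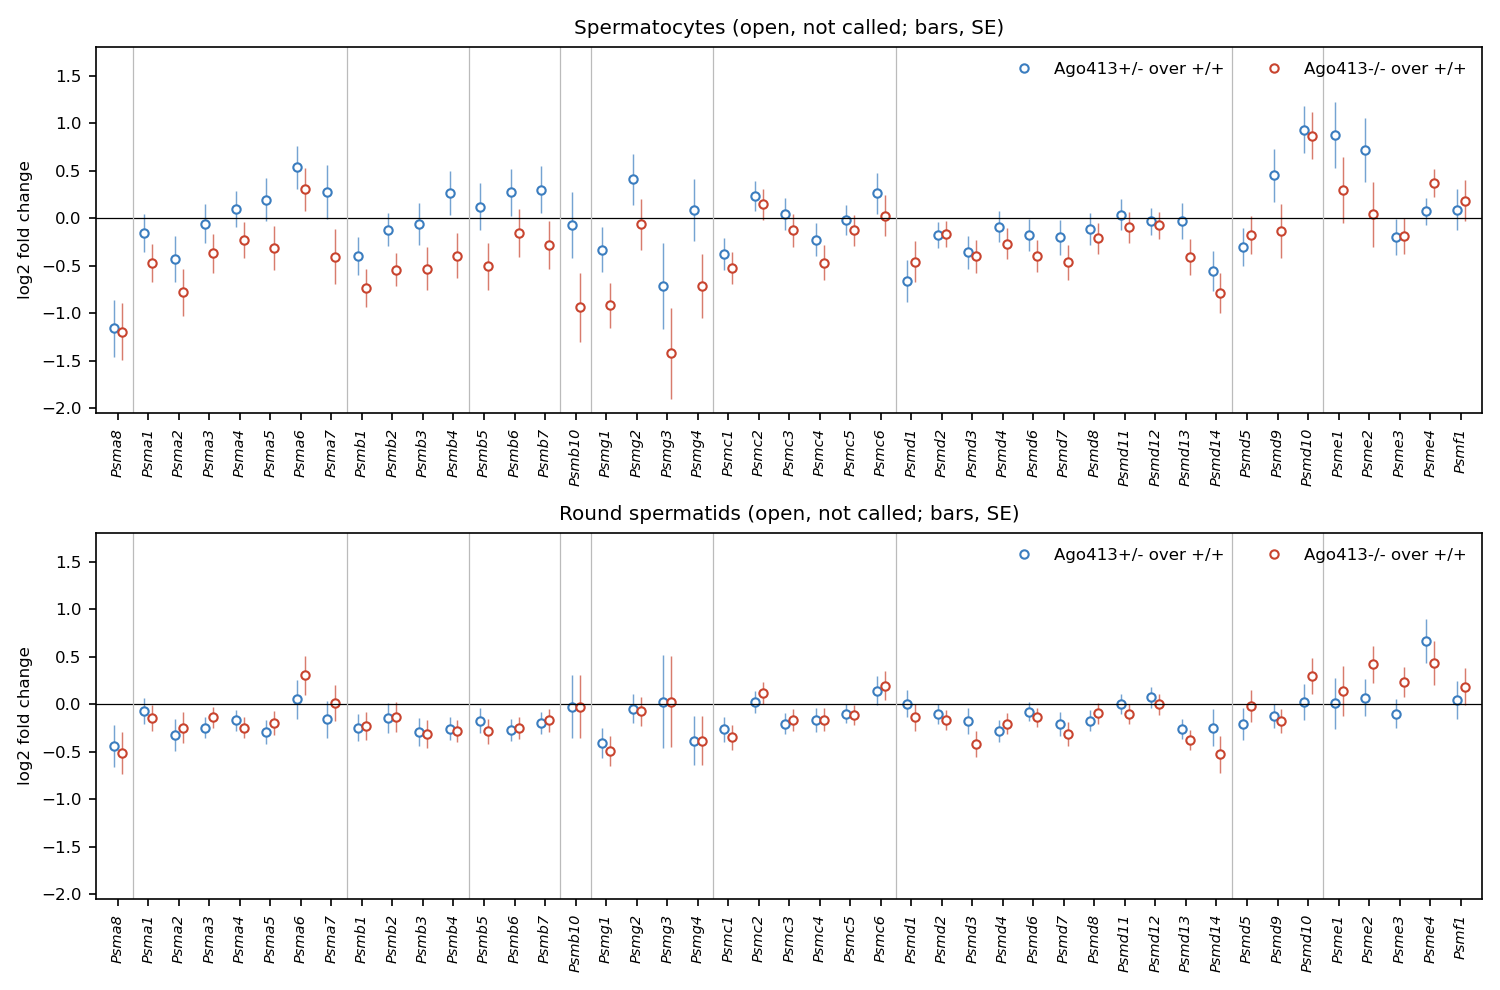
Log2 fold change over Ago413+/+ (vertical axis, linear in log2) with its SE for the 45 tested members in SP (top) and RS (bottom), in Ago413+/- (blue) and Ago413-/- (red), which share the wild-type libraries. No point is filled, since no member was called by edgeR, and in SP 37 of the 45 red points lie below 0.

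The count of calls changed with wild-type SP replicate 5. Its members had a median deviation of 0.02 on the log2 scale from the median of the fraction, where the 3 other wild-type libraries had 0.17 to 0.25, the 3 null libraries -0.23 to -0.04 and the Ago413+/- libraries -0.04, -0.13 and 0.40. Without it, edgeR called 10 members (Psmd10 higher and 9 lower) among 4526 genes, with 2.22% of members higher against 13.9% of all genes and 20% lower against 9.71%. The 6 pachytene markers summed to 1222, 847, 1516 and 686 CPM in wild-type SP, to 759, 534 and 587 CPM in Ago413+/- and to 429, 663 and 609 CPM in Ago413-/-, so that all 3 null libraries were below the wild-type range and, within the wild type, the markers and Psma8 were both lowest in replicate 5. In null against wild-type SP, 6 of 6 of these markers had negative log2 fold changes (median -1.04, 0 called and 4 at an unadjusted p under 0.05 by edgeR, 4 called lower by DESeq2), and the 5 spermatogonia markers summed to 19.9 to 27.6 CPM in the wild type, 47.2 to 58.9 CPM in Ago413+/- and 33.5 to 52.7 CPM in Ago413-/-, without overlap with the wild type. Of these 5, 3 had an unadjusted p under 0.05 in Ago413-/- and 1 was called higher in Ago413+/-. The macrophage markers were at 3.88 to 5.93 CPM in wild-type and 6.27 to 12.9 CPM in null SP (3 of 6 tested at an unadjusted p under 0.05, median log2 fold change 1.07), and the endothelial markers at 5.28 to 7.37 and 7.54 to 8.39 CPM, both without overlap. Of the 3 endothelial markers tested 1 had that p, and their median log2 fold change was -0.75, opposite in sign to the difference in their sum. Round spermatid markers were positive for 5 of 6 (median 0.42, 3 at that p), with overlapping sums of 2659 to 6344 CPM in wild-type and 2921 to 9446 CPM in null SP, and Sertoli markers were negative for 6 of 6 (median -0.74, 0 at that p). The part of these lists in the members' differences was not tested. With upper-quartile scaling the median of all genes moved by 0.134, and relative to all genes the members' median was -0.282 with the main scaling and -0.275 with that one. By the library numbers in the labels, within numbers up to 60 (1 null against 3 wild-type SP libraries) the members' median was -0.39, with -1.88 for Psma8 and 1.09 for Psmd10, and above 60 (2 against 1) it was -0.17, with -0.19 and 0.34.

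**Figure D4:**
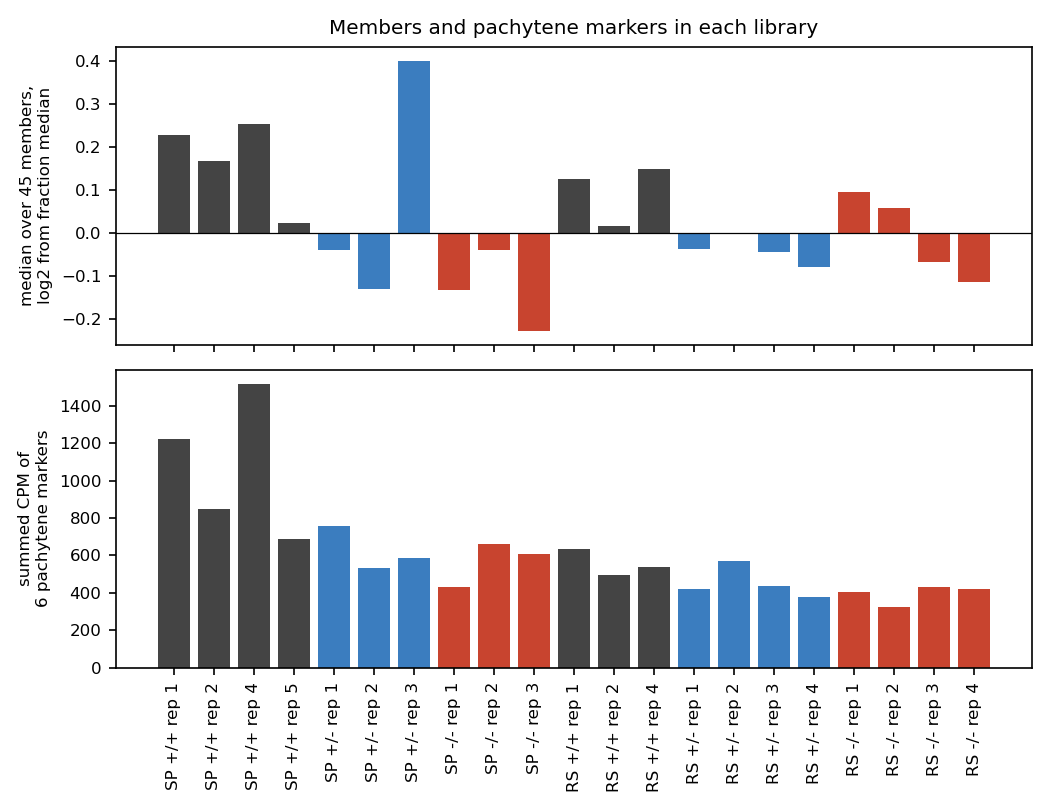
Top, median over the 45 members of the log2 deviation from the fraction's median level in each library, and bottom, summed CPM of 6 pachytene markers, with bars in grey (+/+), blue (+/-) and red (-/-). The +/- SP replicate 3 stands highest at 0.40 in the top panel, and wild-type SP replicates 1, 2 and 4 stand highest in the bottom panel.

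In Ago413+/- against Ago413+/+ SP, edgeR called 0 members and 5 genes (0.0257%), and 7 members (15.6%) had an unadjusted p under 0.05 against 24.6% of all genes. That count was 4 without wild-type replicate 1 (8.89% against 14.8%), 3 without wild-type replicate 4 (6.67% against 16.9%) and 12 without wild-type replicate 5 (26.7% against 34.3%). DESeq2 called Psmd10 higher (2.22% against 3.53% of all genes) and Psma8 lower (2.22% against 2.79%). The members' median was -0.03, where that of all genes was 0.07. After Psma8, the lowest log2 fold changes were those of Psmg3 (-0.71, adjusted p = 0.34) and Psmd1 (-0.66, adjusted p = 0.13). After Psmd10, the highest were those of Psme1 (0.88, adjusted p = 0.15) and Psme2 (0.71, adjusted p = 0.21), the paired subunits of the interferon-induced activator. Leydig markers were positive for 5 of 5 (median 1.18, 2 at an unadjusted p under 0.05; summed level 3.25 to 10.1 CPM in the wild type and 6.03 to 22.8 CPM in Ago413+/-), round spermatid markers for 5 of 6 (median 0.49, 3 at that p), and pachytene markers were negative for 6 of 6 (median -0.92, 2 at that p). The part of these lists in the members' values was not tested. Without wild-type SP replicate 5, 4 members were called, Psmd10 higher (2.22% against 10.8% of all genes) and Psma8, Psmd1 and Psmd14 lower (6.67% against 4.66%). Without +/- SP replicate 3, 0 members were called, the median was -0.23, 37 of 45 were negative and 14 (31.1%, against 23.4% of all genes) had an unadjusted p under 0.05, of which 12 were lower. Within library numbers up to 60 (3 against 3) the members' median was -0.15, with -1.41 for Psma8, and no Ago413+/- SP library had a number above 60.

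Between Ago413-/- and Ago413+/- SP, edgeR and DESeq2 called 0 members and edgeR called 1 gene (0.00514%), with 8 members (17.8%) at an unadjusted p under 0.05 by edgeR against 3.74% of all genes. The members' median was -0.26 and that of all genes -0.06. In the same comparison 5 of 5 Leydig markers (median -1.69, 3 at an unadjusted p under 0.05) and 6 of 6 Sertoli markers (median -0.85, 0 at that p) were negative, with summed levels of 6.03 to 22.8 and 23.6 to 122 CPM in Ago413+/- and 4.57 to 6.94 and 26.3 to 49.5 CPM in Ago413-/-, and their part in the members' values was not tested. The lowest were Psmb10 (-0.86), Psmg4 (-0.80) and Psmg3 (-0.71), and the highest Psme4 (0.30), Psmd1 (0.20) and Psmd5 (0.12), with adjusted p of 0.97 or more. Without +/- SP replicate 3 the members' median was -0.06 and no member had an unadjusted p under 0.05, against 7.25% of all genes. That count was 13 without +/- replicate 2 (28.9% against 5.77%), 3 without null replicate 2 (6.67% against 2.87%), 0 without null replicate 3 (against 1.32%) and 1 with the outlier libraries added back (2.22% against 2.32%). The share of members was 8.89% against 3.29% with upper-quartile scaling and 0% against 1.03% with the library number as a term. Psma8 differed by -0.03 (SE 0.31) between these genotypes and Psmd10 by -0.06 (SE 0.27).

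The same genotype comparisons were made in postmeiotic cells. Between Ago413-/- and Ago413+/+, edgeR and DESeq2 called 0 members, edgeR called 10 of 19310 genes (0.0518%), and 11 members (24.4%) had an unadjusted p under 0.05 by edgeR against 19.3% of all genes. Of the 45 log2 fold changes 33 were negative, with a median of -0.15 where that of all genes was 0.03. Upper-quartile scaling gave a median of -0.063 and 5 members lower at an unadjusted p under 0.05 in place of 10 (6 with the outlier libraries added back, 4 without wild-type replicate 4). In both directions together the share of members was then 15.6% against 19.7% of all genes with that scaling, 15.6% against 19.2% with the outlier libraries and 11.1% against 17.4% without wild-type replicate 4. Relative to all genes the median was -0.174 with the main scaling and -0.173 with the upper-quartile one. The macrophage markers summed to 39 to 46.3 CPM in Ago413-/- and 14.4 to 24.2 CPM in the wild type, without overlap (median log2 fold change 1.49, 7 of 10 at an unadjusted p under 0.05). Pachytene markers summed to 326 to 429 CPM in Ago413-/- and 493 to 634 CPM in the wild type, also without overlap. They were negative for 5 of 6 (median -0.43, 1 at that p), and round spermatid markers were positive for 6 of 6 (median 0.31, 2 at that p). The part of these lists in the members' values was not tested. The lowest were Psmd14 (-0.53, SE 0.19, adjusted p = 0.16), Psma8 (-0.52, SE 0.22, adjusted p = 0.22) and Psmg1 (-0.49, SE 0.16, adjusted p = 0.13). The highest were Psme4 (0.44, SE 0.23, adjusted p = 0.31), Psme2 (0.42, SE 0.19, adjusted p = 0.25) and Psma6 (0.30, SE 0.205, adjusted p = 0.43). Within library numbers up to 60 (2 against 2) the members' median was 0.02, and above 60 (2 against 1) it was -0.28, with -0.72 and -0.27 for Psma8.

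Psma8 in RS was at 64.7, 40.3 and 51.7 CPM in the wild type, at 31.5, 51.9, 35.8 and 32.6 CPM in Ago413+/- and at 35.9, 26.4, 44.5 and 40.9 CPM in Ago413-/-, where both mutant groups overlapped with the wild type. Psme4 in RS was at 326, 488 and 531 CPM in the wild type, at 677, 594, 739 and 817 CPM in Ago413+/- and at 424, 516, 722 and 789 CPM in Ago413-/-. Only the Ago413+/- libraries were all above the wild-type ones. Psmd14 in RS was at 14.4, 21.1, 16.8 and 13.9 CPM in Ago413+/- and at 11, 13.1, 17.1 and 14.8 CPM in Ago413-/-, the latter all below the 17.9 CPM of the lowest wild-type library.

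Between Ago413+/- and Ago413+/+ RS, edgeR and DESeq2 called 0 members, edgeR called 4 genes (0.0207%), and 8 members (17.8%) had an unadjusted p under 0.05 by edgeR against 8.88% of all genes. That count was 5 without wild-type replicate 1 (11.1% against 4.17%), 1 without wild-type replicate 4 (2.22% against 7.33%), 2 without +/- replicate 4 (4.44% against 6.33%) and 3 with the outlier libraries added back (6.67% against 4.91%). The share of members was 8.89% against 9.41% with upper-quartile scaling and 6.67% against 7.5% with a replicate block. With the library number as a term it was 20% against 9.29%. The members' median was -0.17 and that of all genes 0.01. Macrophage markers were positive for 7 of 10 (median 0.63, 4 at that p), at 20.2 to 53.1 CPM summed in Ago413+/- and 14.4 to 24.2 CPM in the wild type, and their part was not tested. The lowest were Psma8 (-0.44), Psmg1 (-0.41) and the chaperone Psmg4 (-0.38), with adjusted p of 0.55 to 0.66. The highest were Psme4 (0.66, SE 0.23, adjusted p = 0.55), the ATPase Psmc6 (0.14) and the lid subunit Psmd12 (0.07). Between Ago413-/- and Ago413+/- RS, edgeR and DESeq2 called 0 members and edgeR called 1 gene (0.00518%), with 1 member (2.22%) at an unadjusted p under 0.05 by edgeR against 7.67% of all genes and a median of 0.00. The lowest were Psmd14 (-0.28), Psmd3 (-0.24) and Psme4 (-0.23), and the highest Psme2 (0.35), Psme3 (0.33) and Psmd10 (0.27), with adjusted p of 0.65 or more.

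Psma8 takes the place of Psma7 in the alpha ring, so the pair was read as a share within each library, which does not depend on scaling. Psma7 in SP was at 12.3, 13.2, 10.9 and 7.9 CPM in the wild type, at 11, 14.4 and 13.4 CPM in Ago413+/- and at 11.8, 7.78 and 5.04 CPM in Ago413-/-. In RS it was at 14.7, 13.4 and 13.4 CPM in the wild type, at 10.6, 15.2, 10.2 and 13.1 CPM in Ago413+/- and at 18.1, 13.5, 16 and 9.74 CPM in Ago413-/-. Psma7 thus reached at most 18.1 CPM, and Psma8 was above it in all 21.

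Per kilobase, Psma8 made up 94.2, 91.5, 95.5 and 92.2% of the pair in wild-type SP and 84.4, 78.8 and 82.6% in wild-type RS. The fractions did not overlap, with means of 93.3% ± 1.84 (SD, n = 4) and 81.9% ± 2.89 (n = 3), a difference of -11.4 percentage points. The 2-sided exact permutation test gave p = 0.0571, the smallest that 4 against 3 libraries allow. The share was 89.3, 83.1 and 79.8% in Ago413+/- SP, below each wild-type library (mean 84% ± 4.83, exact p = 0.0571), and 80.9, 92.2 and 93.5% in Ago413-/- SP, within and below the wild-type range (88.9% ± 6.91, exact p = 0.4). In RS it was 79% ± 2.65 in Ago413+/- and 75.7% ± 6.25 in Ago413-/-, with exact p = 0.229 and 0.171 against the wild type. Over the 28 tests of this share and the shares below, none of which could reach p under 0.05, the lowest adjusted p was 0.4.

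**Figure D5:**
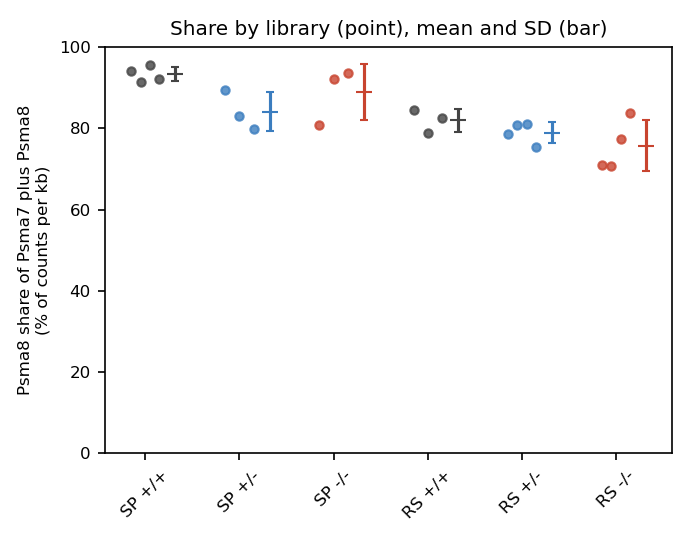
Psma8 as a percentage of Psma7 plus Psma8 counts per kb (vertical axis, 0 to 100) in each library (points), with group mean and SD (bars). The wild-type SP libraries sit between 91.5 and 95.5% and the 3 wild-type RS libraries between 78.8 and 84.4%.

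The catalytic beta subunits were read with the inducible forms that replace them in immune cells. Psmb5 (chymotrypsin-like) in SP was at 38.7, 47.1, 37.4 and 32.4 CPM in the wild type, at 31.3, 29.9 and 61.7 CPM in Ago413+/- and at 25.9, 30.1 and 24.9 CPM in Ago413-/-, and in RS it ranged from 21.7 to 33 CPM. Psmb6 (caspase-like) in SP was at 194, 183, 177 and 186 CPM, at 160, 143 and 347 CPM and at 165, 175 and 151 CPM in the same order, and Psmb7 (trypsin-like) at 188, 166, 193 and 166 CPM, at 156, 140 and 343 CPM and at 148, 156 and 130 CPM. In RS, Psmb6 ranged from 136 to 204 CPM and Psmb7 from 125 to 174 CPM over all genotypes. The +/- SP replicate 3 held the highest value of the 10 SP libraries for all 3. For all 3 the null SP libraries lay below the wild-type ones, as they did for 14.8% of all genes, and none was called (log2 fold changes -0.51, -0.16 and -0.28, adjusted p = 0.18, 0.69 and 0.46).

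The inducible forms were close to absent. Psmb8 had 0 to 9 counts per library and was at 0 in 7 of 21, Psmb9 had 0 to 6 counts and was at 0 in 8, and the thymus form Psmb11 had 0 to 7 counts and was at 0 in 7. Psmb8 made up at most 0.5% of Psmb5 plus Psmb8 in a library, and Psmb9 at most 0.0983% of Psmb6 plus Psmb9. Psmb10 was measurable, at 2.41, 2.75, 2.42 and 1.51 CPM in wild-type SP, at 2.02, 1.61 and 2.61 CPM in Ago413+/- SP and at 1.63, 0.754 and 1.08 CPM in Ago413-/- SP. In RS it ranged from 0.918 to 2.22 CPM over the 3 genotypes. Its share of Psmb7 plus Psmb10 had group means of 1.59 to 2.49%. The exact tests of the 3 shares could not pass, since 3 against 4 libraries allow no p under 0.0571. Psmb8 reached that p in null RS, where 0.324% ± 0.0758 stood against 0.0455% ± 0.0414 in wild-type RS and 0.0478% ± 0.0827 in null SP. The macrophage markers given above were also higher in null RS than in wild-type RS, and higher in RS than in SP, and their part in these low counts was not tested.

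The activators Psme1 and Psme2 form the interferon-induced cap PA28. Psme1 in SP was at 1.88, 2.16, 2.04 and 1.76 CPM in the wild type, at 2.4, 3.66 and 4.37 CPM in Ago413+/- and at 3.63, 1.89 and 1.54 CPM in Ago413-/-, and in RS at 2.42, 2.8 and 4.68 CPM, at 3.79, 3.37, 2.95 and 2.89 CPM and at 2.83, 5.06, 3.43 and 3.25 CPM. Psme2 in SP was at 2.94, 4.76, 2.18 and 2.67 CPM, at 4.88, 5.66 and 4.27 CPM and at 4.56, 2.64 and 2.25 CPM, and in RS at 3.69, 4.56 and 4.75 CPM, at 3.61, 4.63, 4.54 and 5.25 CPM and at 6.99, 5.69, 6.13 and 4.92 CPM. Both reached at most 6.99 CPM, far below Psme3 and Psme4, and only Psme2 in null RS against null SP was called. The near-copy Psme2b had no count in any of the 21 libraries, and 18.4% of the stretches of 100 bases in the Psme2 transcripts also occur in transcripts of Psme2b.

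Genes around the proteasome that the rule leaves out were counted from a list of 29, chosen with earlier results of these data known, of which 28 were tested. In wild-type RS against SP, 4 were called higher, among them the ubiquitin-activating enzyme Uba1 (log2 fold change 1.19) and Ufd1 (0.70), a partner of the segregase Vcp. Another 4 were called lower, the ubiquitin gene Rps27a (-0.83), the proteasome-binding Fbxo7 (-0.65), the cap deubiquitinase Uchl5 (-0.60) and Ecpas (-0.56). Each direction was 14.3% of the list, against 12.7% of all genes higher and 11.4% lower. DESeq2 called 4 higher (14.3% against 12.9%) and 7 lower (25% against 13.8%). In Ago413+/- RS against SP, Uba1 was called higher (3.57% of the list, against 7.07% of all genes) and Sem1 and Rps27a lower (7.14% against 1.82%). In Ago413-/- RS against SP, 6 were called higher, among them Ubqln2, Uba1, Ufd1 and the ubiquitin receptor Adrm1 (21.4% against 11.7%), and Uchl5 was called lower (3.57% against 5.42%). None of the 28 was called by edgeR in a genotype comparison or for the interaction, where 2 to 9 of them (7.14 to 32.1%) had an unadjusted p under 0.05, against 3.74 to 30.4% of all genes. DESeq2 called 7 of them in null against wild-type SP (2 higher, 5 lower), 2 in null against wild-type RS, 1 in Ago413+/- against wild-type SP (of all genes it called 15.6, 3.64 and 6.31%) and 0 in the other genotype comparisons and the interaction.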

How the data were processed

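Poly(A) RNA of 24 enriched germ cell preparations was sequenced by the authors as strand-specific paired reads. Per the study's methods, reads were trimmed with Trim Galore, those under 50 nt were removed, and STAR aligned the rest (mm10, per the labels) and gave the deposited raw counts per gene. The annotation release and the strand column used are not given in the sources used here. Counts were used as deposited, at 12825105 to 29749058 per library. The submitters label 3 libraries as outliers (spermatocyte Ago413+/+ replicate 3 and Ago413+/- replicate 4, round spermatid Ago413+/+ replicate 3), and these were left out, which leaves 21. Gene IDs were named with GENCODE M21.

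Genes that reached 10 counts in 3 or more libraries were fitted with edgeR 4.0.16 (quasi-likelihood test, TMM scaling, R 4.3.3). The 3 genotypes of a fraction shared 1 fit, and comparisons of fractions and the interaction used all 21 libraries. A call needed a Benjamini-Hochberg adjusted p under 0.05 over all genes tested and a log2 fold change beyond 0.5 in either direction. Levels are CPM with TMM over the 21 libraries, and per kilobase they were divided by the union length of exons. Shares were tested with exact 2-sided permutation tests (scipy 1.17.1). Floors (3 counts) cover counting error only, while SDs and SEs include the spread between libraries. The fits were checked on simulated counts.

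The members and lists were chosen with earlier results of these data known. Named with values per library were Psma7, Psma8, Psme4, Psmd10, Psmb5 to Psmb10, Psme1 to Psme3 and Psmf1, and in each comparison the 3 largest rises and falls, with up to 8 called members in each direction between fractions. Psma6, Psmd1, Psmd14, Psmb2, Psmb1 and Psmg3 were given per library after their values were seen. Psmb8 and Psmb9, and in round spermatids Psmb5 to Psmb7 and Psmb10, were given as ranges. Alternatives were DESeq2 1.42.0, upper-quartile scaling, no filter, only the groups compared, the outlier libraries added back, the library number as a term, consecutive library numbers as pairs, a replicate block, shares without length and leaving out each library. Stretches of 100 bases shared with transcripts of other genes made up 23.7% of Psma5, 22.2% of Psmb5 and 13.4% of Psma3, so their counts are less certain. Some genes of the list around the proteasome are counted but not reported here by name.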

Additional observations from a re-analysis of the deposited data

Results flagged for a closer look

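In groups of 4 libraries, 7 of 135 member and group pairs had 1 library far from the 3 others by Dixon's test at the 95% level, and chance alone flags about 1 in 20. In wild-type spermatocytes, Psmb1 was lowest in replicate 5 at 52.6 CPM (73 to 75.6 in the others), Psme4 was lowest in replicate 1 at 470 CPM (616 to 633), and Psmd12 was highest in replicate 4 at 111 CPM (102 to 103). In Ago413-/- round spermatids, Psmg1 was highest in replicate 1 at 15.9 CPM (12.4 to 12.5), as was Psmd7 at 69 CPM (61.6 to 62.7), and Psmd2 was lowest in replicate 4 at 502 CPM (548 to 555). In Ago413+/- round spermatids, Psma2 was highest in replicate 2 at 22.9 CPM (15.4 to 16.3). Groups of 3 libraries were not tested.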

How the results depend on the processing

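With few pools per group, the counts of called members moved with single libraries, while Psmf1 was called higher in round spermatids in each genotype in every fit that left out 1 library. With the outlier libraries added back, 0 members were called between fractions in the wild type and 0 in Ago413+/-. In Ago413+/- the count was 12 with no filter (25% against 5.83%) and 2 with consecutive library numbers as pairs (4.44% against 5.48%), and it ranged from 1 to 16 when 1 library was left out. In Ago413-/- that range was 2 to 8. In null against wild-type spermatocytes, 9 members were called by DESeq2 (20%, against 15.6% of all genes), 6 with no filter (12.5% against 7.61%), 4 with only the groups compared (8.89% against 6.93%) and 0 to 10 when 1 library was left out. In Ago413+/- against wild-type spermatocytes the counts were 2 by DESeq2 (4.44% against 6.31%), 3 with no filter (6.25% against 4.3%) and 0 to 4. The members' median log2 fold change was -0.14 with upper-quartile scaling for wild-type round spermatids against spermatocytes. For null against wild-type spermatocytes it was -0.17 with upper-quartile scaling, -0.21 with the outlier libraries and -0.36 to -0.21 when 1 library was left out. The causes were not tested beyond the settings themselves.

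Signs changed for values near 0. The interaction of Psme1 was 0.36 with the outlier libraries and -0.34 to 0.34 without 1 library, and that of Psmb6 was -0.144 to 0.042. For Ago413+/- against wild-type round spermatids, Psmd12 was -0.024 with the outlier libraries and -0.032 to 0.134 without 1 library, and Psmc6 was -0.029 to 0.23. Psme4 in Ago413+/- against wild-type spermatocytes was -0.012 to 0.15. The Psmb10 share differed by -0.151 to 0.511 percentage points (null against wild-type round spermatids), -0.02815 to 0.587 (Ago413+/- against wild-type round spermatids) and -0.0977 to 0.528 (Ago413+/- between fractions).

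The correlation of deviations in same-numbered libraries was above 0.1 in 4 of 7 pairs of spermatocyte libraries, 0 of 10 of round spermatids and 4 of 9 across fractions, so not every pair passed and the numbers were not taken to pair the samples. For consecutive library numbers across fractions it was above 0.1 in 8 of 9 pairs (-0.14 to 0.307), which also left 1 pair below. With a replicate block, 15 members were called between fractions in the wild type (33.3%, against 30.3% of all genes), 5 in Ago413+/- (11.1% against 8.61%), 7 in Ago413-/- (15.6% against 18.6%) and 0 in each genotype comparison, and the members' median for null against wild-type spermatocytes was -0.42.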
